A study of Mus musculus with 8 samples.

Results

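Toll-like receptors are innate immune sensors that span a membrane and bind molecules of microbes or of damaged cells. The members described here were Tlr1 to Tlr9 and Myd88, the adaptor through which all of these receptors except Tlr3 signal. They were chosen by name, and each was read from the probe set that the platform annotation assigns to that gene alone. Of the 10 genes named, 9 had such a probe set, 1 each, among 28371 probe sets and 18782 singly named genes on the array. Tlr5, the sensor of bacterial flagellin, had no probe set of its own and was not analysed here.

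The study compared thoracic perivascular adipose tissue, the fat around the thoracic aorta, of RictoraP2KO mice (4 arrays) and of control mice of the genotype Rictorfl/fl (4 arrays). Rictor is the defining subunit of mTOR complex 2, a kinase that activates Akt. The allele name refers to the promoter of aP2 (Fabp4), a lipid-binding protein gene of fat cells that macrophages also express, so the deletion need not be limited to adipocytes. All mice were males aged 17 to 22 weeks, starved overnight and killed at 9 am, and none was treated. Each array measured the RNA of 1 sample, and the labels do not say that each sample was a separate animal, so the spread behind each p-value is that between samples and may be partly technical.

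In fat, these receptors are known mainly from macrophages and other leukocytes, but not from them alone. Tlr4, for example, is also carried by adipocytes, preadipocytes and vascular cells. Binding of a ligand brings the receptors together, their cytoplasmic TIR domains recruit adaptors, and kinases of the IRAK family with the ligase Traf6 then activate NF-κB and interferon regulatory factors. Tlr1, Tlr2, Tlr4 and Tlr6 face the outside of the cell, whereas Tlr3, Tlr7, Tlr8 and Tlr9 belong to the endosomal group, known for reading nucleic acids.

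The arrays were checked before the members were read. The brightest adipocyte and brown fat markers fitted the labelled tissue. In the 8 arrays Fabp4 lay between 11.6 and 11.8 on the log2 scale. Ucp1, the uncoupling protein of brown fat, lay between 11.3 and 12.0. The full marker lists were less even. RictoraP2KO replicate 1 had the lowest mean deviation of brown fat markers, -0.70, where the lowest control array had -0.25. It also had the highest mean deviation of adipocyte markers, 0.31, with a Lep signal of 5.81 against at most 3.755 in control arrays. This array was not among those left out together below. The Rictor signal was 6.68 ± 0.08 in RictoraP2KO arrays and 6.54 ± 0.06 in control arrays (SD, n = 4 each), a difference of 0.14 (SE 0.063; limma adjusted p = 0.685) that goes against the label, and no source used here says whether its probes lie in the deleted part. Directions below therefore rest on the labels of the arrays. Further, 3 arrays carried signal of another tissue. Skeletal muscle markers stood 1.42 above their 8-array mean in RictoraP2KO replicate 2, lung epithelial markers 2.75 above theirs in control replicate 2, and neuron markers 1.23 above theirs in control replicate 3, where no other array passed 0 in any of these lists. Cardiac markers were uneven beyond these arrays, with a lowest value of -1.51 (RictoraP2KO replicate 1) and a highest of 2.07 (RictoraP2KO replicate 2). Differences of the members and mean differences of the leukocyte and pathway lists are given with all arrays and without these 3, which leaves 3 RictoraP2KO and 2 control arrays.

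Values below are log2 RMA signals, in which a step of 1 is a doubling. Signals of different probe sets depend on their probes as well as on the amount of RNA, so the order of signals is not an order of abundance. As a common mark, the median of all probe sets was 3.76 in every array. It is not a detection limit, and no detection calls were used here. The number of arrays limits the precision of every value.

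By this mark 4 of the 9 measured members lay above the median in all 8 arrays, namely Myd88, Tlr4, Tlr3 and Tlr8. Tlr7 was above it in 6 arrays, 3 RictoraP2KO and 3 control, and Tlr9 in 5, 3 RictoraP2KO and 2 control. Tlr1 passed it in RictoraP2KO replicate 2 alone, and Tlr2 and Tlr6 in no array. Leaving out the 3 arrays kept the count of members above the median in all remaining arrays at 4. The median splits the probe sets of each array evenly, and the share of all probe sets above it in all 8 arrays was not computed. The count therefore describes the members and does not set them apart from other genes.

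Averaged over the 8 arrays, the signal of Myd88 was 8.04, followed by Tlr4 at 5.94, Tlr3 at 5.11, Tlr8 at 4.74, Tlr7 at 4.07, Tlr9 at 3.86, Tlr1 at 3.61, Tlr2 at 3.24 and Tlr6 at 2.37. Neighbours in this order from Tlr3 down to Tlr2 overlapped in their ranges over the arrays. Gaps without overlap separated Myd88 from Tlr4, Tlr4 from Tlr3 and Tlr2 from Tlr6. Of all probe sets, 91.2% had a lower mean than that of Myd88, 72.6% a lower mean than that of Tlr4 and 25.5% a lower mean than that of Tlr6.

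**Figure D1:**
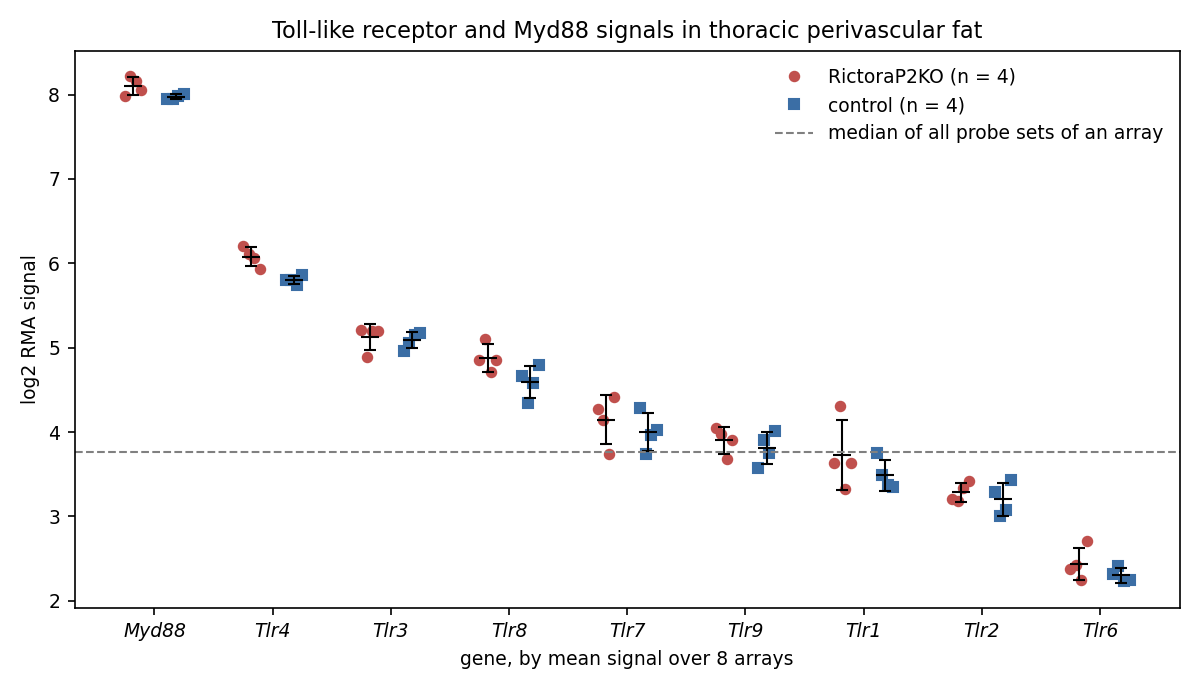
Log2 RMA signal (y axis) of the 9 measured genes (x axis, by mean signal over 8 arrays) in 4 RictoraP2KO arrays (red circles, left) and 4 control arrays (blue squares, right), with the mean and SD in black and the array median of 3.76 dashed. Myd88, Tlr4, Tlr3 and Tlr8 lie above the median in all arrays, and in Tlr4 alone the groups do not overlap.

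Of the 4 members above the median throughout, Tlr3, Tlr8 and Myd88 have a promoter window in RefSeq's annotation of GRCm38.p6, and these are shown because they belong to the receptors and the adaptor with the clearest signal. Each runs from 250 bases before to 50 bases after an annotated transcript start, 5′ to 3′ on the gene's strand. Tlr4 and Tlr7 have no window in that table. Capitals mark matches to 3 motifs searched on both strands, which do not overlap each other in these windows. They are the interferon regulatory factor motif, the NF-κB motif and GAGGAA for PU.1, a factor of myeloid and B cells.
Tlr3, chr8:45410331-45410630, minus strand: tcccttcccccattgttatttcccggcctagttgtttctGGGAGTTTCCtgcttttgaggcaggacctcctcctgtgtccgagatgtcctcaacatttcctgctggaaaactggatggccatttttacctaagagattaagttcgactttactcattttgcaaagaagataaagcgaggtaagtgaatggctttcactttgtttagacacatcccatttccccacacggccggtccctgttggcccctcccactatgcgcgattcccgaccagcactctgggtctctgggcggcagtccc
Tlr8, chrX:167264280-167264579, minus strand: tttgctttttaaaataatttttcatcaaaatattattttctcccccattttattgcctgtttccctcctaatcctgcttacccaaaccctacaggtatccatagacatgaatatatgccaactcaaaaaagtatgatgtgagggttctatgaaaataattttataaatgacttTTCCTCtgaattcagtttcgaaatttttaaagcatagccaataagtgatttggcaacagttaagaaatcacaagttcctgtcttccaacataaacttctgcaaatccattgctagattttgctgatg
Myd88, chr9:119339969-119340268, minus strand: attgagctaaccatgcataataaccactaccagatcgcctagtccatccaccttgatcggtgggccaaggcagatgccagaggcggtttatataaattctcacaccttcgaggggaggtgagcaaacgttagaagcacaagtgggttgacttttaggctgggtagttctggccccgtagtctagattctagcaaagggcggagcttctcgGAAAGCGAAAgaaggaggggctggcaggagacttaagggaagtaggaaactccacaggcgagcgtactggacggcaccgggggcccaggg

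In the Tlr3 window the NF-κB letters begin 211 bases before the start, in the Tlr8 window the PU.1 letters begin 77 bases before it on the opposite strand, and in the Myd88 window the interferon regulatory factor letters begin 40 bases before it. Of the 8 members with a window (10 windows in all), 2 held the interferon regulatory factor letters (Myd88 and Tlr6), 3 held GAGGAA (Tlr1, Tlr8 and Tlr9) and 1 held the NF-κB letters (Tlr3). Among all 32851 windows of that length the shares were 3.44%, 28.3% and 1.63%. These shares are per window, whereas the counts are per gene. Tlr1 and Tlr6 have 2 windows each with a match in 1, so the same counts hold out of the 10 windows. A match describes the letters only, and none of these measurements shows binding.

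No member passed the test between the groups. In the limma fit, with p adjusted by Benjamini-Hochberg across the whole array, 0 of the 9 members had an adjusted p under 0.05, against 0.00352% of all probe sets (1 of 28371). At an unadjusted p under 0.05 there were 2 members, Tlr4 and Tlr8, both higher in RictoraP2KO arrays, where 3.85% of all probe sets were called in that direction and 7.27% in either. All 9 differences were above 0, with a median of 0.14, against 48.7% of all probe sets and a median of 0.00 over them (-0.0033). The members were measured in the same samples and are not independent of each other. Without the 3 arrays 6 of the 9 differences were above 0 and 0 members had an unadjusted p under 0.05. In whole tissue, a change in the number of cells that make a transcript and a change in its amount per cell cannot be told apart.

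Of the receptors on the cell surface, Tlr4 binds bacterial lipopolysaccharide together with its partner Ly96 (MD-2). Its signal was 6.21, 6.11, 6.07 and 5.93 in RictoraP2KO replicates 1 to 4, against 5.80, 5.81, 5.75 and 5.86 in control replicates 1 to 4. Every RictoraP2KO array lay above every control array, a separation that 2.08% of all probe sets showed in this direction. The difference was 0.28 (SE 0.069, 95% interval 0.12 to 0.43), or 1.21-fold, with a limma adjusted p = 0.605. By exact permutation of the labels, two-sided, p was 0.0286, the smallest that 4 against 4 arrays allow. With 1 array left out in turn the difference ran from 0.23 to 0.32, and without the 3 arrays it was 0.24 (SE 0.105; limma adjusted p = 0.969).

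Tlr2 recognises bacterial lipoproteins as a pair with Tlr1 or with Tlr6. Tlr1 and Tlr6 are neighbours on chromosome 5 with 0 annotated protein-coding genes between them. Tlr1 stood at 3.64, 4.31, 3.32 and 3.63 in RictoraP2KO replicates 1 to 4, against 3.75, 3.49, 3.37 and 3.35 in control replicates 1 to 4. Replicate 2 of the RictoraP2KO group was the highest array and replicate 3 of the same group the lowest, so the groups overlapped. The difference was 0.24 (SE 0.193; limma adjusted p = 0.821), 0.04 without RictoraP2KO replicate 2 and -0.02 without the 3 arrays. That array also had the highest B cell and T cell marker means, given below, and their part in the Tlr1 value was not tested.

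The Tlr2 signal was 3.20, 3.19, 3.34 and 3.42 in RictoraP2KO replicates 1 to 4, against 3.29, 3.01, 3.08 and 3.43 in control replicates 1 to 4. The highest value was that of a control array, and the difference was 0.09 (SE 0.104; limma adjusted p = 0.876), or -0.04 without the 3 arrays. Tlr6 had the lowest signals of the members, from 2.25 to 2.70 in RictoraP2KO arrays and from 2.23 to 2.42 in control arrays, with a difference of 0.14 (SE 0.098; limma adjusted p = 0.794). Its highest array was RictoraP2KO replicate 4, without which the difference was 0.05; without the 3 arrays it was 0.16.

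Of the endosomal receptors, Tlr7 reads single-stranded RNA. Tlr8 and Tlr7 are neighbours on the X chromosome, again with 0 annotated protein-coding genes between them. The Tlr8 signal was 4.85, 5.11, 4.71 and 4.85 in RictoraP2KO replicates 1 to 4, against 4.67, 4.34, 4.58 and 4.79 in control replicates 1 to 4. Only RictoraP2KO replicate 3 fell below a control array, replicate 4. The difference was the largest of the members at 0.29 (SE 0.114, 95% interval 0.03 to 0.55; limma adjusted p = 0.668), and exact two-sided permutation of the labels gave 0.0571 as its p. Without the 3 arrays, which include the highest Tlr8 value and the lowest, the difference was 0.08.

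Tlr7 had signals of 4.28, 4.14, 3.74 and 4.42 in RictoraP2KO replicates 1 to 4, against 4.28, 3.73, 3.97 and 4.02 in control replicates 1 to 4. Both groups spanned the array median, and the difference of 0.14 (SE 0.158; limma adjusted p = 0.861) became -0.0047 without the 3 arrays. Tlr9, the sensor of unmethylated CpG DNA that is prominent in B cells and plasmacytoid dendritic cells, ran from 3.68 to 4.05 in RictoraP2KO arrays and from 3.57 to 4.01 in control arrays. Its difference was 0.09 (SE 0.113; limma adjusted p = 0.876), 0.01 without control replicate 1, the lowest array, and 0.09 without the 3 arrays.

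Tlr3 binds double-stranded RNA and signals through Ticam1 (TRIF) instead of Myd88. Its signal was 5.21, 4.89, 5.20 and 5.20 in RictoraP2KO replicates 1 to 4, against 4.96, 5.06, 5.15 and 5.17 in control replicates 1 to 4. RictoraP2KO replicate 2 was the lowest of the 8 arrays and the other RictoraP2KO arrays were the highest. The difference of 0.04 (SE 0.088; limma adjusted p = 0.944) was the smallest of the members, with a 95% interval from -0.16 to 0.24. It was 0.12 without RictoraP2KO replicate 2 and 0.14 without the 3 arrays.

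Myd88 stood at 7.98, 8.22, 8.16 and 8.06 in RictoraP2KO replicates 1 to 4, against 7.94, 7.95, 7.99 and 8.01 in control replicates 1 to 4. RictoraP2KO replicate 1 lay within the control range and the other RictoraP2KO arrays above it. The spread was 0.11 in RictoraP2KO arrays and 0.03 in control arrays (SD, n = 4 each), and the difference was 0.13 (SE 0.066, 95% interval -0.02 to 0.28; limma adjusted p = 0.726; exact two-sided permutation p = 0.0857). Without the 3 arrays it was 0.09.

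**Figure D2:**
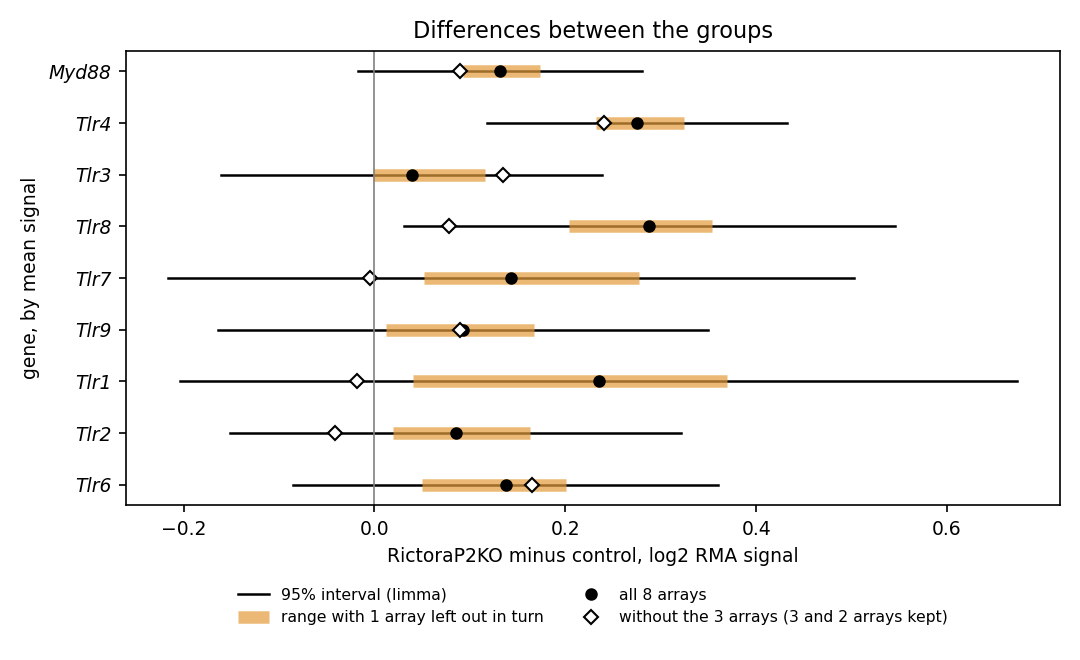
Difference RictoraP2KO minus control in log2 RMA signal (x axis) for each gene (y axis): black points and lines are limma differences with 95% intervals over 8 arrays, orange bars the range with 1 array left out in turn, and open diamonds the difference without the 3 arrays with signal of another tissue. The intervals of Tlr4 and Tlr8 lie above 0 before adjustment over all probe sets, and the diamonds of Tlr1, Tlr2 and Tlr7 lie at or below 0, at -0.02, -0.04 and -0.0047.

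The members varied in different arrays. RictoraP2KO replicate 1 had the highest value of 3 members (Tlr3, Tlr4 and Tlr9), RictoraP2KO replicate 2 of 3 others (Tlr1, Tlr8 and Myd88), RictoraP2KO replicate 4 of Tlr6 and Tlr7, and control replicate 4 of Tlr2. Control replicate 2 had the lowest value of 3 members (Tlr2, Tlr7 and Tlr8). Among the 36 pairs of members, Pearson's r over the 8 arrays ran from -0.77 to 0.67 with a median of 0.23, and 29 pairs were above 0. This r includes the differences between the groups, which were above 0 for every member. For deviations from the group means, fewer pairs were above 0. There r ran from -0.93 (Tlr1 with Tlr3) to 0.58 (Tlr1 with Tlr8). Over the 8 arrays, no pair passed an exact permutation test after adjustment over the 36 pairs (smallest adjusted p = 0.729 for Pearson's r and 0.692 for Spearman's rho). Before adjustment 1 pair by Pearson's r and 1 by Spearman's rho had a permutation p under 0.05. The first was Tlr1 with Tlr3 (r = -0.77, permutation p = 0.0203; rho = -0.40, permutation p = 0.327), for which r was -0.37 without the 2 arrays farthest from the Tlr1 median, RictoraP2KO replicates 2 and 3. The second was Tlr4 with Tlr8 (r = 0.67, permutation p = 0.0633; rho = 0.80, permutation p = 0.0215), for which r was 0.48 without RictoraP2KO replicates 1 and 2 and 0.21 for deviations from the group means. The chromosomal neighbours Tlr7 and Tlr8 had r = 0.58 (permutation p = 0.129; rho = 0.60, permutation p = 0.124) and r = 0.29 without control replicate 2 and RictoraP2KO replicate 4, and Tlr1 and Tlr6 had r = 0.38 (permutation p = 0.306; rho = 0.62, permutation p = 0.115) and r = 0.48 without RictoraP2KO replicates 2 and 3.

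Among 10184 other genes with a mean signal above the median, those whose pattern over the 8 arrays was most like that of Tlr4 by Pearson's r were Gask1b (0.97), Il13ra1 (0.95), which encodes a subunit of the interleukin 13 receptor, and Fgf10 (0.95), a growth factor gene of the mesenchyme. Those most like Myd88 were Mettl16 (0.93), Cry1 (0.92), a repressor of the circadian clock, and Zbp1 (0.92), a nucleic acid sensor. Spearman's rho with Myd88 was lower, at 0.55 for Mettl16, 0.79 for Cry1 and 0.81 for Zbp1. With Tlr4 it was 0.98 for Gask1b, 1 for Il13ra1 and 0.98 for Fgf10. The values of r are the highest of many over few arrays that include both groups, and are given as a description.

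Marker lists of the cells that carry these receptors were read beside the members, as deviations from the 8-array mean averaged over the genes of a list. Macrophage markers ran from -0.22 to 0.35 in RictoraP2KO arrays and from -0.26 to 0.05 in control arrays. All 14 measured genes were above 0 in the comparison, as were 48.7% of all probe sets, and 0 passed the adjusted threshold. Genes of a list were measured in the same samples and are not independent of each other, here and in the lists below. The 14 differences ran from 0.0055 to 0.55, with a mean of 0.28, or 0.13 without the 3 arrays. The brightest macrophage genes, Lyz2 (lysozyme) and C1qb (a complement subunit), differed by 0.23 and 0.37. RictoraP2KO replicate 3 had a macrophage value of -0.22, below control replicates 1 and 4, and a Tlr4 value above every control array. Of the 9 members, 5 (Tlr1, Tlr6, Tlr7, Tlr8 and Tlr9) were lower in that array than in the other RictoraP2KO arrays.

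Monocyte and neutrophil markers were between 0.0048 and 0.41 in RictoraP2KO arrays and between -0.25 and -0.13 in control arrays, with 6 of 7 genes above 0. The list means of the 2 groups did not overlap, but no gene of the list separated the groups on its own. List means of endogenous ligands, a list read below, did not overlap either. They were -0.017 or higher in RictoraP2KO arrays and -0.06 or lower in control arrays. How often a list mean separates the groups by chance was not computed. The mean difference of monocyte and neutrophil markers was 0.34, or 0.28 without the 3 arrays. The largest single difference, 0.65, was that of Ngp, whose mean signal of 3.03 lay below the array median. Dendritic cell markers ran from -0.07 to 0.20 in RictoraP2KO arrays and from -0.27 to 0.0079 in control arrays (6 of 8 genes above 0), with a mean difference of 0.13, or 0.03 without the 3 arrays. B cell markers ran from -0.32 to 0.71 in RictoraP2KO arrays and from -0.40 to 0.21 in control arrays (7 of 7 genes above 0), and T cell markers from -0.10 to 0.38 in RictoraP2KO arrays and from -0.21 to 0.0085 in control arrays (7 of 7 above 0). The mean difference of B cell markers was 0.28, or 0.29 without the 3 arrays and 0.09 without RictoraP2KO replicate 2 alone. That of T cell markers was 0.19, or 0.08 without the 3 arrays and 0.09 without RictoraP2KO replicate 2 alone. RictoraP2KO replicate 2 was the highest array for B cell, T cell and monocyte and neutrophil markers and for Tlr1, Tlr8 and Myd88, and the lowest for Tlr3. No gene of these 4 lists passed the adjusted threshold, and the part of these cells in the differences of the members was not tested. Adipocyte markers had a mean difference of 0.03, or -0.06 without RictoraP2KO replicate 1, with 4 of 7 genes above 0. Brown fat markers had a mean difference of -0.11, with 2 of 7 genes above 0. Lists of other cell types also leaned to either side. Above 0 were 6 of 6 skeletal muscle, 5 of 6 fibroblast and 5 of 7 endothelial genes. Fewer were above 0 among lung epithelial (1 of 6), cardiac (2 of 5), smooth muscle (0 of 6) and neuron genes (0 of 7). Without the 3 arrays the mean difference of skeletal muscle markers went from 0.32 to -0.11. That of neuron markers went from -0.42 to -0.10, and that of lung epithelial markers from -0.70 to 0.10. Fibroblast markers went from 0.10 to 0.04, and endothelial markers stayed at 0.08. Smooth muscle markers went from -0.16 to -0.37 and cardiac markers from -0.05 to -0.91.

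**Figure D3:**
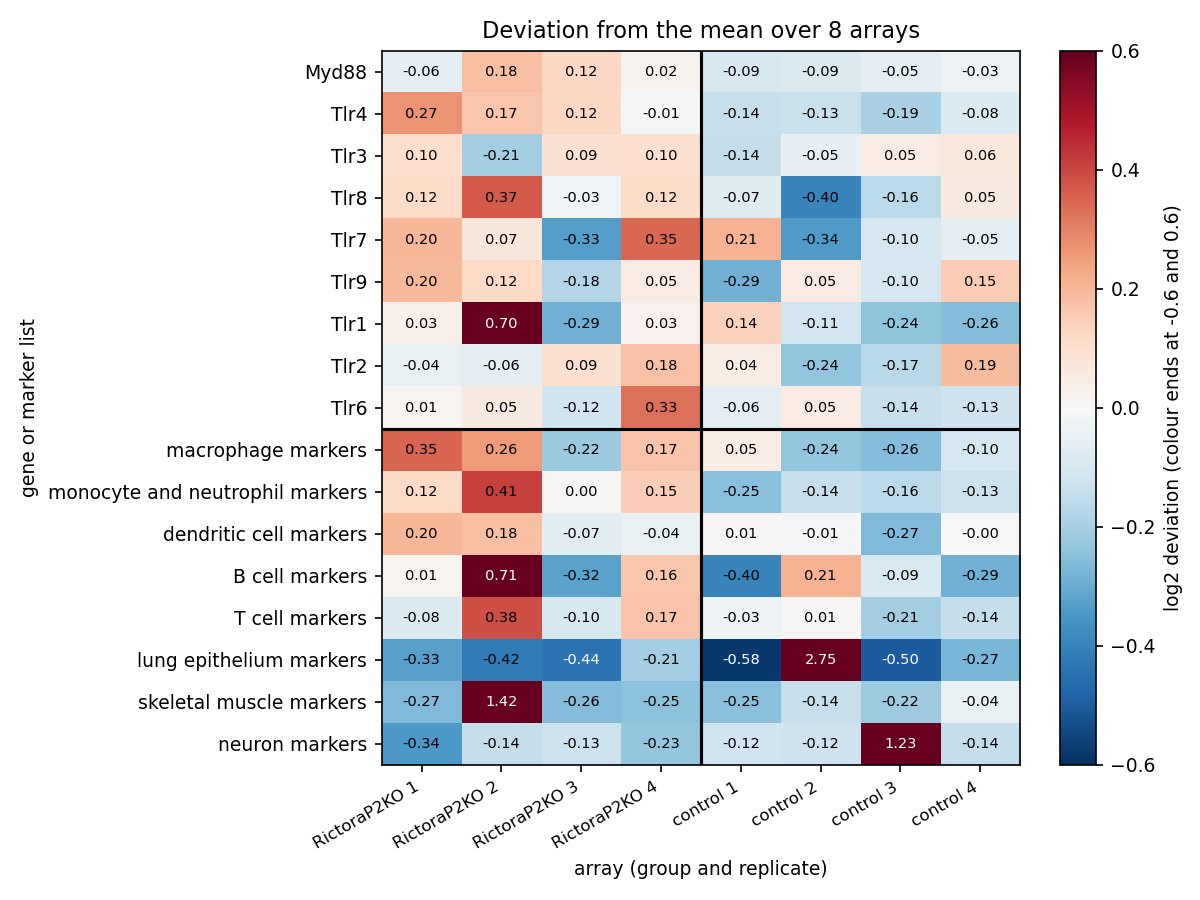
Deviation of the log2 RMA signal from the mean over 8 arrays (colour and printed value) for each gene (upper rows) and for the mean of each marker list (lower rows) in each array (columns, RictoraP2KO left of the line). Tlr1 reaches 0.70 and B cell markers 0.71 in RictoraP2KO replicate 2, and lung epithelial markers reach 2.75 in control replicate 2.

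The rest of the pathway was read from 9 lists with 80 measured genes. None of the 80 passed the adjusted threshold in either direction, and at an unadjusted p under 0.05 there were 6 higher (3.85% of all probe sets) and 1 lower (3.42% of all probe sets). Of the 80 differences 53 were above 0, where 48.7% of all probe sets were. The median of the 80 was 0.05, against 0.14 for the members. Averaged over the genes of a list, 6 of the 9 differences moved by more than 1.5 times without the 3 arrays. They were 0.11 for ligand handling (0.24 with all arrays), 0.01 for the other Toll-like receptors (0.06), 0.04 for adaptors (0.11), 0.0068 for inhibitors (0.03), -0.14 for transcription factors (-0.0051) and -0.04 for induced genes (0.09). The mean differences of the other lists were 0.23 for endogenous ligands (0.29 with all arrays), 0.05 for folding and transport (0.07) and 0.016 for kinases and ubiquitin ligases (0.020).

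Among the genes that present ligands to the receptors, 5 of 6 differences were above 0 with a median of 0.29. Ly86 (MD-1) and its partner Cd180, a relative of the receptors found on B cells and myeloid cells, differed by 0.48 (SE 0.201; limma adjusted p = 0.670) and 0.31 (SE 0.133; limma adjusted p = 0.685). Both genes were lowest in control replicate 3, at 5.77 and 4.93, an array with signal of another tissue. The exception was Ly96, the lipopolysaccharide-binding partner of Tlr4, at 7.47 ± 0.13 in RictoraP2KO arrays and 7.60 ± 0.12 in control arrays (SD, n = 4 each), a difference of -0.13. Of the receptors outside the set, Tlr13, a sensor of bacterial ribosomal RNA in mice, lay above the array median in all 8 arrays and differed by 0.30 (SE 0.147), while Tlr11 (0.02) and Tlr12 (-0.14) were below the median throughout.

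Of the endogenous ligands, all 7 measured genes had differences above 0, with a median of 0.24. The smallest p-values belonged to S100a9 and S100a8, the subunits of calprotectin, a protein of neutrophils and monocytes that can act on Tlr4. The S100a9 signal was 2.99, 3.56, 3.27 and 3.45 in RictoraP2KO replicates 1 to 4, against 2.83, 3.04, 2.87 and 2.85 in control replicates 1 to 4, a difference of 0.42 (SE 0.119; limma adjusted p = 0.649). S100a8 differed by 0.65 (SE 0.228; limma adjusted p = 0.658). All S100a9 values lay below the array median. S100a8 passed it in RictoraP2KO replicate 2 alone, at 4.05, an array with signal of another tissue. RictoraP2KO replicate 1 overlapped the control arrays in both genes.

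Genes that fold, transport and cleave the receptors had a median difference of 0.07 (7 of 10 above 0). Unc93b1, which escorts the nucleic acid sensors to endosomes, differed by 0.17 (SE 0.125), and Lgmn, a protease that cleaves them, by 0.20 (SE 0.097). Of the 5 adaptor genes 4 were above 0, with a median of 0.04. Pik3ap1 (BCAP), which links the receptors to PI3 kinase, stood at 5.15, 5.21, 4.87 and 5.11 in RictoraP2KO replicates 1 to 4, against 4.77, 4.79, 4.71 and 4.88 in control replicates 1 to 4, a difference of 0.30 (SE 0.082; limma adjusted p = 0.649). Only RictoraP2KO replicate 3 fell below a control array, replicate 4. Ticam2 (TRAM), the bridge between Tlr4 and Ticam1, differed by 0.26 (SE 0.089; limma adjusted p = 0.651).

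Downstream of the adaptors, kinases and ubiquitin ligases had a median difference of 0.04 (7 of 11 above 0), with Traf6 at 0.12 (SE 0.088) and Tab2, a subunit of the TAK1 kinase complex, at 0.12 (SE 0.085). Transcription factors had a median of -0.0070 (3 of 7 above 0). Among them Relb, a subunit of NF-κB, differed by -0.20 (SE 0.085; limma adjusted p = 0.668) and Irf5, which acts below Myd88, by 0.18 (SE 0.106). Inhibitors had a median of 0.02 (6 of 11 above 0), with the phosphatase gene Inpp5d at 0.24 (SE 0.142) and Socs1 at -0.11 (SE 0.080).

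Genes that receptor signalling induces had a median of 0.02 (12 of 20 above 0), and 0 of the 20 had an unadjusted p under 0.05. Cxcl1, a chemokine that attracts neutrophils, differed by -0.17 (SE 0.090), and Il1b, which encodes interleukin 1β, by 0.20 (SE 0.124). The tests of limma compare each gene between the groups, and the difference between lists was not tested.

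**Figure D4:**
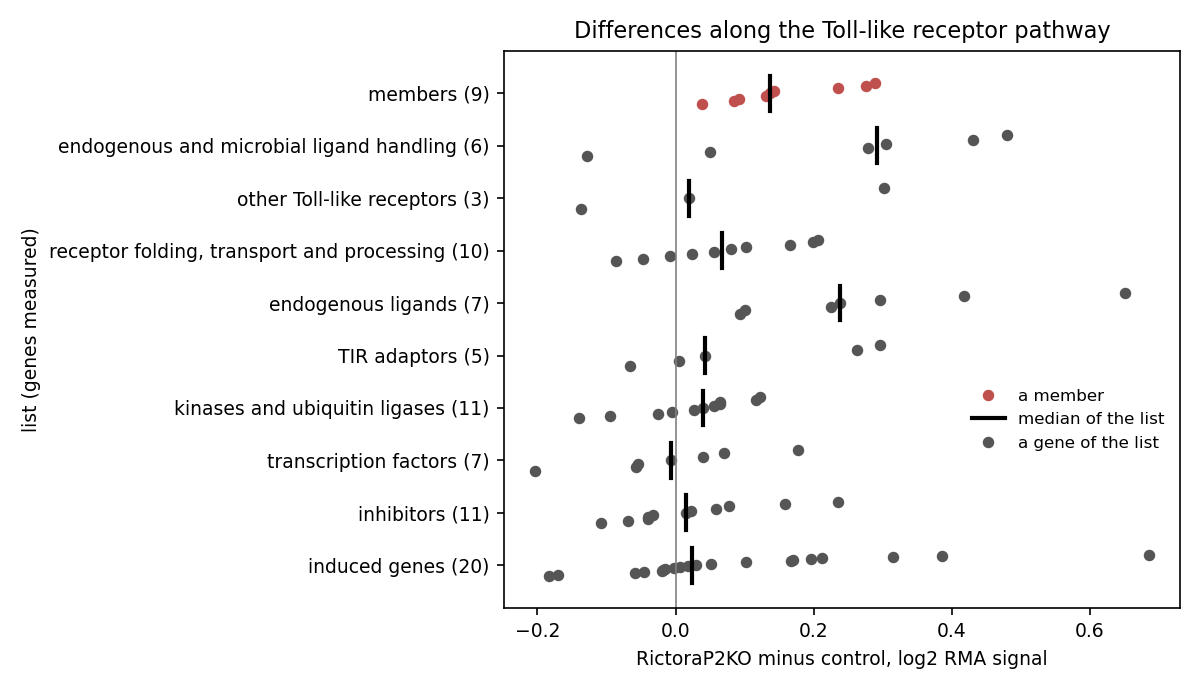
Difference RictoraP2KO minus control in log2 RMA signal (x axis) for the 9 measured members (red) and for each gene of 9 pathway lists (grey), 1 row a list with its number of genes, and the list's median as a black bar. The medians run from -0.0070 for transcription factors to 0.29 for genes of ligand handling, and no gene shown passed the adjusted threshold.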

How the data were processed

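RNA of 8 samples of thoracic perivascular fat was measured on 8 arrays. The authors deposited log2 values, made with RMA (version 1.10.2 of Affymetrix Power Tools), as listed per the labels in the submitters' processing notes. The 8 columns matched the 8 samples. Sorted arrays differed by at most 0.03 at any rank, so a difference in total RNA between the groups would not be seen. Gene names came from the platform's annotation, with symbols updated through RefSeq gene IDs; 1881 probe sets with several symbols named no gene.

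RictoraP2KO minus control was fitted with limma 3.58.1 in R 4.3.3 over all probe sets, with no covariate and no filter, and adjusted by Benjamini-Hochberg (threshold 0.05). The fit was tested on simulated data. Single values were compared by exact two-sided permutation over 70 assignments of labels.

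The members, gene lists, promoter motifs and the 3 arrays left out together were chosen with earlier results of these data known. The genes named are all members, the 2 of smallest p in each pathway list (Tlr11 to Tlr13 whole), and the 3 most like Tlr4 (smallest p) and Myd88 (highest signal). Of the markers, the 2 brightest macrophage genes and the brightest adipocyte and brown fat genes are named. Ly96, Lep and Ngp were added after their values were seen. Alternatives were another normalisation, variance models, array weights, a filter on dim probe sets, the replicate block, arrays left out, averaged probe sets and other thresholds.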

Additional observations from a re-analysis of the deposited data

Results flagged for a closer look

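Tlr3 in RictoraP2KO replicate 2, at 4.895, stood far below the other arrays of its group, which lay between 5.20 and 5.21. The gap exceeded Dixon's critical value for 4 samples at the 95% level. Each of the 9 genes was examined in both groups, and chance alone passes about 1 group in 20.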

How the results depend on the processing

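The count of members past the adjusted threshold was 0 in the comparison of all 8 arrays, and also 0 in each of the 17 other fits and at an adjusted p under 0.1; at an unadjusted p under 0.05 it was 2. Of 150 recomputed differences of single members, 146 kept their sign and 0 passed. The 4 that turned were Tlr1 (-0.018), Tlr2 (-0.041) and Tlr7 (-0.0047) without the 3 arrays, and Tlr3 (-0.0017) without control replicate 1; the cause was not tested. The filter on dim probe sets removed Tlr1, Tlr2 and Tlr6. Leaving out RictoraP2KO replicate 2, the array flagged for Tlr3, gave that gene a difference of 0.12.

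With the replicate number as a block, 0 members passed, and Tlr4 differed by 0.28 (limma adjusted p = 0.820). Deviations of same-numbered arrays correlated between -0.15 and 0.09. These values showed no pairing but cannot exclude one, because signal of another tissue in single arrays could hide it. The number of members above the array median was 4, and 6 when 4 of 8 arrays sufficed or 3 against the 60th percentile.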
